A study of Mus musculus with 14 samples.

Results

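Enzymes of xenobiotic metabolism, from the Cyp, Ugt, Gst and Sult families, were followed across the colon epithelium of WT and Smad4 KO mice on water and after dextran sulfate sodium (DSS). The members were protein-coding genes with cytochrome P450 (Cyp), UDP-glucuronosyltransferase (Ugt1 to Ugt3), glutathione S-transferase (Gst, cytosolic classes and kappa) and sulfotransferase (Sult) symbols. Each had at least 10 raw counts in at least 3 of the 14 libraries. The table held 157 genes with such symbols, of which 75 passed, out of 15127 genes of all kinds that passed the same filter. They were 39 of 98 Cyp genes, 9 of 20 Ugt genes, 20 of 22 Gst genes and 7 of 17 Sult genes. Of the 82 genes that did not pass, 40 had no count in any library.

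RNA was sequenced from EDTA-isolated colon epithelium of adult mice of 8 to 14 wk on a background enriched for C57/BL6. The groups were WT on water (n = 4), Smad4 KO on water (n = 4), WT after 3 d of 2.5% DSS, which damages the lining of the colon (n = 3), and Smad4 KO after the same DSS (n = 3). In the Smad4 KO mice a tamoxifen-inducible Cre under the villin promoter (Villin-CreERT2) deletes floxed Smad4 in intestinal epithelial cells, and cells without villin keep the gene. The comparisons asked how loss of Smad4 and DSS, alone and together, relate to transcript levels in the epithelium.

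Lipophilic compounds from diet, microbiota and drugs are cleared in steps. Cytochromes P450 oxidize them, Ugt enzymes add glucuronic acid, Sult enzymes add sulfate and Gst enzymes add glutathione, and transporters then export the conjugates. The colon epithelium is one of the first tissues to meet such compounds, and several members also act on the body's own sterols, fatty acids, retinoids and steroid hormones.

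Smad4 itself was at 118 to 159 CPM (counts scaled to library size with the TMM method) in WT on water, at 170 to 182 CPM in WT after DSS and at 40.4 to 43.9 CPM in Smad4 KO after DSS. In Smad4 KO on water it was at 35.1 to 46.8 CPM in replicates 2, 3 and 4, but replicate 1 held 158 CPM, which went against its label and is marked by an open circle in the plots. Below, Smad4 KO on water and the words without Smad4 go by the label and include that library unless it is said to be left out. Total counts ran from 12882827 to 26087231 per library. Mitochondrial genes held 4.05% to 32.8% of the counts, with over 20% in WT water replicates 3 (30.6%) and 4 (32.8%) and Smad4 KO water replicate 4 (21.4%). The defining epithelial genes Epcam, Cdh1 and Vil1 were at 564 CPM or more in every library. Summed over 6 fibroblast genes, the level was 0.896 to 4.06 CPM in WT on water, 2.98 to 24.8 CPM in Smad4 KO on water, 0.276 to 1.89 CPM in WT after DSS and 7.21 to 13 CPM in Smad4 KO after DSS, with Lum and Pdgfra under the count filter. In a bulk sample, fewer cells of a type and less RNA per cell cannot be told apart.

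The promoters of 4 members named in the results below are shown as examples, 1 each from the sulfotransferases (Sult1a1), the Cyp2d genes (Cyp2d26), sterol synthesis (Cyp51) and the mu class of Gst (Gstm7). Each window runs from 250 bases before to 50 bases after the start site in RefSeq (build GRCm38.p6), written 5′ to 3′, with matches to the motifs searched in capitals.
Sult1a1, chr7:126676369-126676668, minus strand: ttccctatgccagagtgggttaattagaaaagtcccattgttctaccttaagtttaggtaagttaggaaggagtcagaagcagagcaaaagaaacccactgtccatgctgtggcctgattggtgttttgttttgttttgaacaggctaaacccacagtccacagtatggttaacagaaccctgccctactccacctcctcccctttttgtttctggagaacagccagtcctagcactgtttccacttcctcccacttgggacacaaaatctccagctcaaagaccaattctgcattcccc
Cyp2d26, chr15:82794196-82794495, minus strand: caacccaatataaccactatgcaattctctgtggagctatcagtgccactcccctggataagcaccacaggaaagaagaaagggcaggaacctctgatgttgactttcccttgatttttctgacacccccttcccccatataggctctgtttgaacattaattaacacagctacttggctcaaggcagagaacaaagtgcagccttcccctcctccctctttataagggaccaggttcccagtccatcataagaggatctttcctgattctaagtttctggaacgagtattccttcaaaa
Cyp51, chr5:4104648-4104947, minus strand: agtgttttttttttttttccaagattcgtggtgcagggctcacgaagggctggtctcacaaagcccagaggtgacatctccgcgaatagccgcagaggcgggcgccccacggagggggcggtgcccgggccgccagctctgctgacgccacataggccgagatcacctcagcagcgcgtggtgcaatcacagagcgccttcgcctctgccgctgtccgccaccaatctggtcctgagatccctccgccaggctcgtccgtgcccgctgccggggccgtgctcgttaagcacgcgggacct
Gstm7, chr3:107931565-107931864, minus strand: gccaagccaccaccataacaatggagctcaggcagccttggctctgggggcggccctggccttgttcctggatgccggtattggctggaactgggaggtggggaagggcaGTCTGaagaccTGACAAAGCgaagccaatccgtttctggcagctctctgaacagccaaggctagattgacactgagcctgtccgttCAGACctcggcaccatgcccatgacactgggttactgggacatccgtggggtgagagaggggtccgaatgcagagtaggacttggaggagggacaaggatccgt
The letters searched, on both strands, were TNGCGTG (the core bound by the aryl hydrocarbon receptor), TGACNNNGC (the antioxidant response element core), GTCTAGAC (a SMAD element) and GTCTG (the SMAD core). Of 76 windows that the table gives for 61 of the 75 members, 3 (3.95%) held the first, against 5.07% of all 32851 promoters. The antioxidant core was in 8 (10.5%), against 12.4% of all promoters, and the full SMAD element in 0, against 0.213%. The SMAD core was in 43 (56.6%), against 49.6% of all promoters. In the Gstm7 window, GTCTG or its complement was found 140 and 54 bases before the start, and an antioxidant core 129 bases before it. A second RefSeq window of Gstm7, chr3:107931768-107932067, held none of the 4, and of the 7 mu class members with a window, 2 held an antioxidant core, Gstm5 and Gstm7. The windows of Gstm1, not shown, held 3 and 4 SMAD cores and no antioxidant core. The windows of Sult1a1, Cyp2d26 and Cyp51 held none of the 4.

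Most of the transcripts of each family came from a few genes. Compared per kilobase of exon, Gstp1 (259 CPM per kb, mean of 14 libraries), Gsto1 (204), Cyp2c55 (159), Gstm1 (156) and Sult1a1 (126) had the highest levels. Cyp2c55 is a P450 of the colon that oxidizes arachidonic acid, and it held 20.6% of the Cyp counts. It was followed among the Cyp members by Cyp2d34 (117 CPM per kb) and Cyp51 (56.6). Ugt2b34 (82.5 CPM per kb) held 70.6% of the Ugt counts, ahead of Ugt1a7c (21.3) and Ugt2b35 (11.3). Among the sulfotransferases Sult1a1 came before Sult1d1 (56.1 CPM per kb) and Sult1b1 (43.4). In all, 10 of the 75 members averaged 100 CPM or more, 48 averaged 10 CPM or more, and 14 averaged less than 1 CPM.

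**Figure D1:**
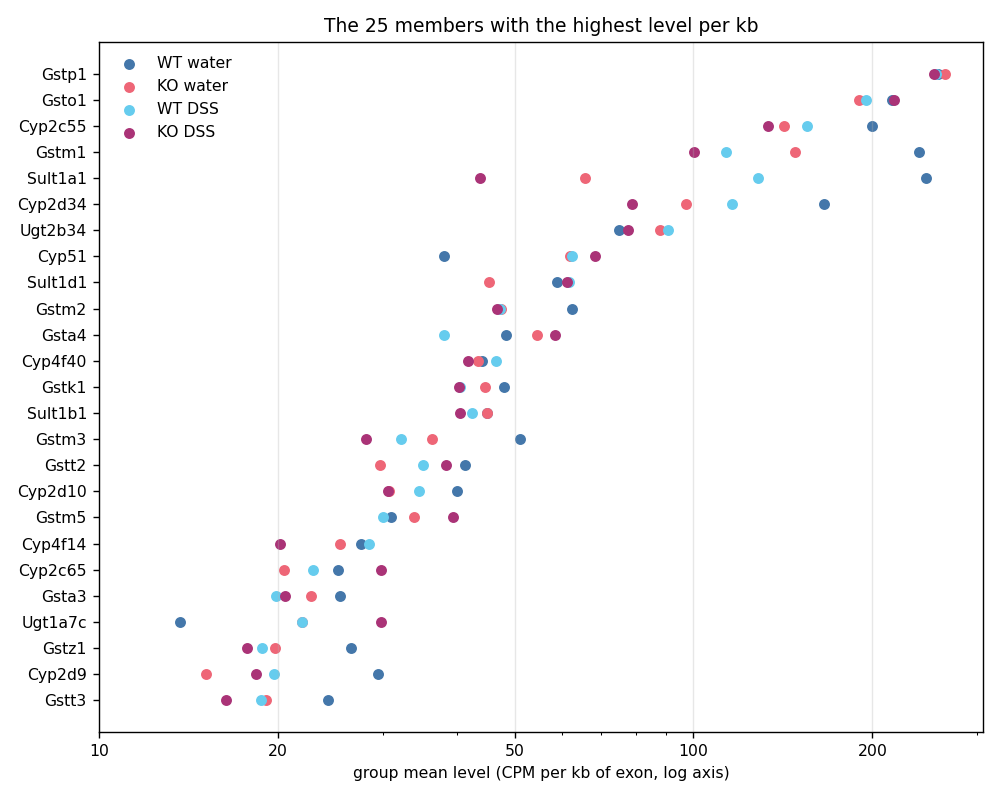
Mean level of the 25 members with the highest level per kb, in CPM per kilobase of exon on a log axis, with 1 point for each of the 4 groups. Gstp1 and Gsto1 lie highest in the mean of all libraries, and the groups are farthest apart for Sult1a1, with the WT water point highest and the Smad4 KO DSS point lowest.

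The Cyp1 genes, which the aryl hydrocarbon receptor induces, were close to absent. Cyp1a1 and Cyp1a2 had at most 1 raw count and Cyp1b1 at most 2 in any library. The ethanol-inducible Cyp2e1 and the vitamin D-degrading Cyp24a1 had at most 3, and the retinoic acid hydroxylase Cyp26b1 at most 11. At this depth a difference between groups was not detectable for these 6 genes, and they were not tested.

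Summed over all 75 members, the level was 4228 to 4682 CPM in WT on water, 3509 to 3736 CPM in Smad4 KO on water, 3702 to 3879 CPM in WT after DSS and 3356 to 3602 CPM in Smad4 KO after DSS. All 4 WT water libraries thus lay above the other 10. As a share of the counts without mitochondrial genes, the members held 0.476% to 0.506% in WT on water and at most 0.435% in every other library. As a share of all counts, the order was lost: the members held 0.33% to 0.472% in WT on water, and the WT water libraries with many mitochondrial counts fell among the rest. By family, the Sult sum was 629 to 799 CPM in WT on water, against 335 to 484 CPM in Smad4 KO on water, 490.2 to 532 CPM in WT after DSS and 309.8 to 419.6 CPM in Smad4 KO after DSS. The Gst sum was 1464 to 1727 CPM in WT on water and at most 1408 CPM elsewhere. Single genes weighed on these sums. Gstm1 held 21.3% of the Gst counts in WT on water and 11.1% to 16.1% in the other groups. Sult1a1 held 52.6% of the Sult counts in WT on water and 18.1% to 37.9% in the other groups. Sums without Gstm1 and Sult1a1 were not taken. On unscaled total counts the Gst sum was 1143 to 1645 CPM in WT on water and overlapped with the other groups. The Cyp sum was 1612 to 1871, 1303 to 1663, 1444 to 1602 and 1326 to 1456 CPM in the same order, so that these groups overlapped in part. The Ugt sum overlapped between genotypes on water and after DSS, while in WT it was 338 to 506 CPM on water and 512 to 574 CPM after DSS. Its 2 lowest values, 338 and 365 CPM, were in WT and Smad4 KO water replicates 4. On unscaled total counts the group means of the Cyp sum were 1560 and 1529 CPM in WT and Smad4 KO on water and those of the Sult sum were 620.4 and 399 CPM. On that scale the Sult sum was 558.8 to 699.7 CPM in WT on water and 498.6 to 559.6 CPM in WT after DSS, so that these groups overlapped.

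**Figure D2:**
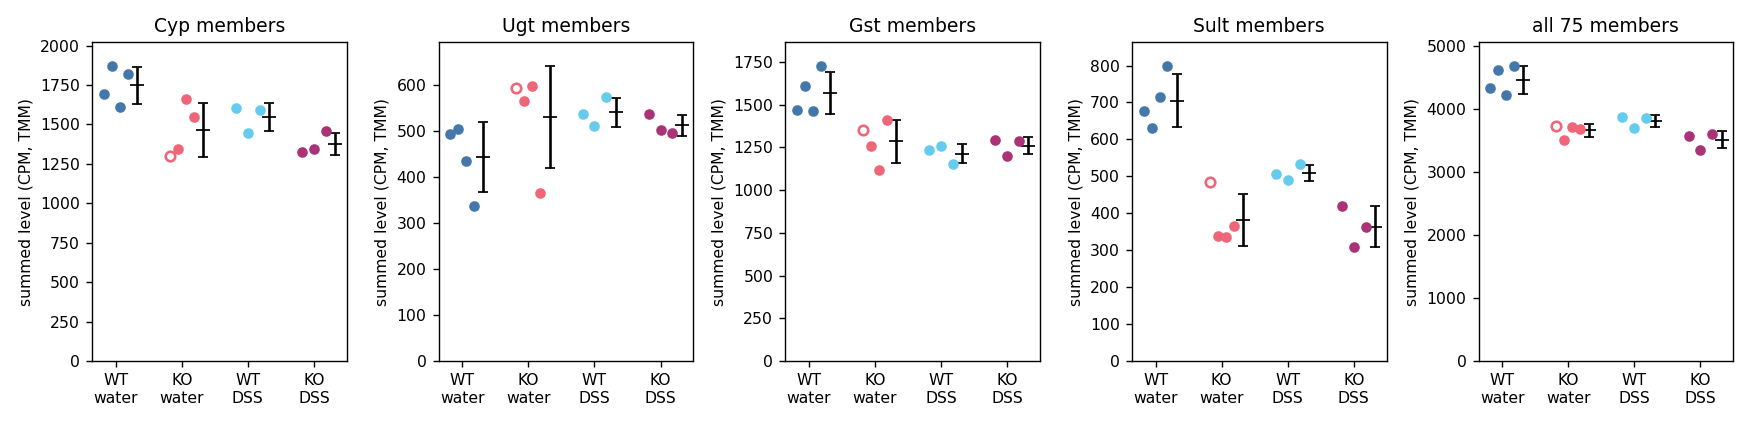
Summed level of the members of each family, and of all 75, in every library (CPM after TMM scaling, axes from 0), with the mean and SD of each group beside the points. The open circle is Smad4 KO water replicate 1. The WT water libraries lie above all others for the Gst, Sult and total sums. Gstm1 in the Gst sum and Sult1a1 in the Sult sum hold a larger share there than in the other groups.

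Across the 75 members the genotype comparison after DSS gave the only calls at an adjusted p below 0.05 in edgeR's quasi-likelihood test of the 2 groups. Sult1a1, which adds sulfate to small phenols, fell 2.92-fold without Smad4, and Cyp2d34 fell 1.47-fold. These 2 of 75 members (2.67%) compare with 1.04% of all genes called in this comparison. At an unadjusted p below 0.05, 4 members were higher (5.33%, against 7.18% of all genes) and 12 lower (16%, against 8.27%). The median log2 fold change of the members was -0.13, against 0.00 for all genes, and 53 of 75 were below 0. DESeq2 called 6 members, 5 lower and 1 higher (3.3% of all genes called).

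On water, no member was called between Smad4 KO and WT by the edgeR test of the 2 groups, which called 0.00661% of all genes. At an unadjusted p below 0.05, 21 members were lower without Smad4 (28%, against 9.51% of all genes) and 2 were higher (2.67%, against 10.8%), and the median log2 fold change was -0.23. DESeq2 called 10 members, 9 lower and 1 higher (5.08% of all genes called). A single edgeR model of all 14 libraries, which shares 1 estimate of the spread, called 11, with 10 lower and 1 higher (8.9% of all genes). The 11 were Sult1a1, Cyp27a1, Cyp2d12, Cyp2d22, Cyp2d26, Cyp2d34, Cyp2d37-ps, Cyp4b1, Cyp4f13 and Gstm1, which were lower, and Cyp51, which was higher. Cyp2d12, Cyp2d22, Cyp2d26, Cyp2d37-ps and Cyp4f13 were named here after their values were seen. Leaving out Smad4 KO replicate 1 gave 1 call in the edgeR test of the 2 groups, Sult1a1 (0.112% of all genes called), and leaving out Smad4 KO replicate 4 gave 13 (17.3% of the members, against 12.5% of all genes). Without replicate 1, 15 members were lower (20%) and 2 higher (2.67%) at an unadjusted p below 0.05. Of all 15127 genes, 1312 were lower and 1435 higher in that test.

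DSS against water in WT gave no called member with edgeR, which called 0.0% of all genes. At an unadjusted p below 0.05, 16 were lower after DSS (21.3%, against 12.8% of all genes) and 2 were higher (2.67%, against 11.6%), with a median log2 fold change of -0.23. DESeq2 called 11 members, 10 lower and 1 higher (11.7% of all genes called). Leaving out WT water replicate 2 gave 4 calls with edgeR (5.33% of the members), near the 5.14% of all genes called, and leaving out WT water replicate 4 gave 2 (2.67%, against 0.621%). This comparison and the genotype comparison on water share the 4 WT water libraries.

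DSS against water in Smad4 KO gave no called member with edgeR (0.00661% of all genes) and none with DESeq2 (0.469% of all genes). At an unadjusted p below 0.05, 3 were higher (4%, against 3.06% of all genes) and 3 lower (4%, against 3.38%). Leaving out Smad4 KO water replicate 1 also gave 0 calls. The difference between the genotypes in their response to DSS, tested as an interaction over all 14 libraries, was called for no member (0.00661% of all genes). It had an unadjusted p below 0.05 for 5 members (7.46% of all genes), and DESeq2 called none.

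**Figure D3:**
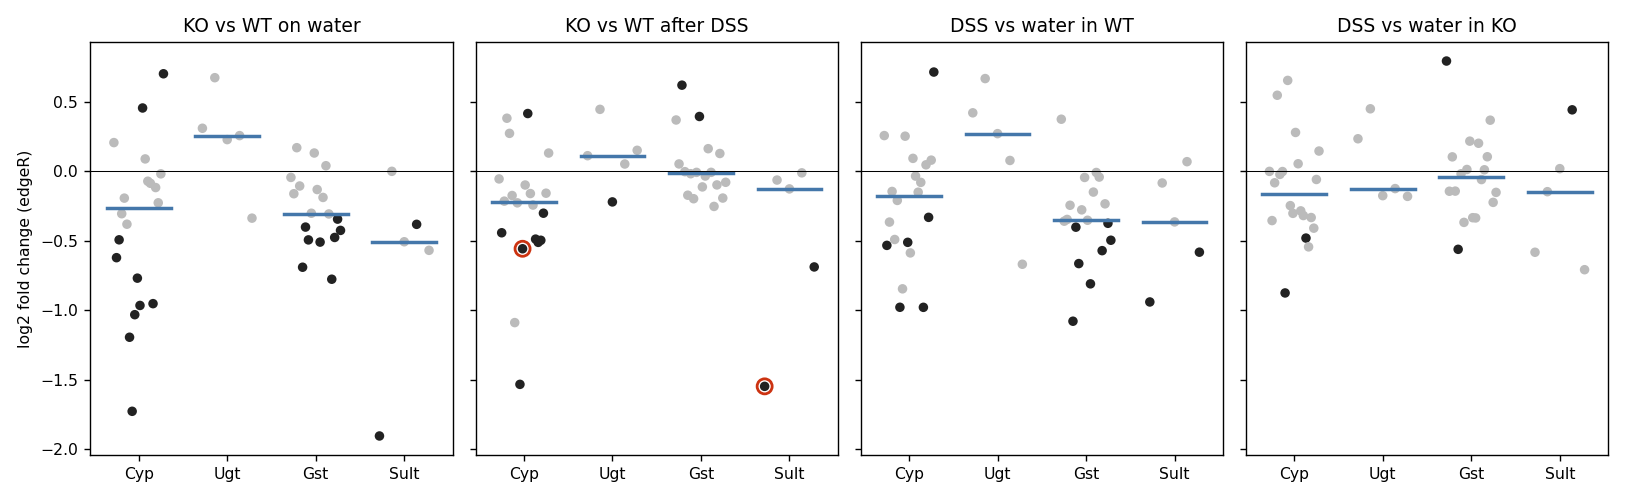
Log2 fold change (edgeR) of each of the 48 members that averaged 10 CPM or more, by family and comparison. Black points have an unadjusted p below 0.05, grey points do not, red circles are members called at an adjusted p below 0.05, and blue lines are family medians. The calls are Sult1a1 and Cyp2d34 after DSS, and on water the black points lie mostly below 0.

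The Cyp members of drug and xenobiotic metabolism were led in number of lower members by the Cyp2d genes, whose human counterpart CYP2D6 oxidizes many basic drugs. The 7 that were tested lie together on chromosome 15 (chr15:82200958-82624675, NCBIM37, the mm9 build of the files). All 7 had negative log2 fold changes without Smad4 both on water (median -1.03) and after DSS (median -0.56). On water 6 of the 7, and after DSS 3, had an unadjusted p below 0.05, against 9.51% and 8.27% of all genes that were lower at that level. Among the 7 is Cyp2d37-ps, an entry with a pseudogene symbol, 590 exonic bases and a mean of 3.2 CPM. Cyp2d9, Cyp2d10, Cyp2d12 and Cyp2d34 transcripts share 90.2% or more identity with another member over most of their length, so that reads could be split between them by the counting.

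Cyp2d34 was at 215, 279, 278 and 303 CPM in the WT water libraries and at 140.2, 101, 151 and 239 CPM in the Smad4 KO water libraries. The DSS libraries had 188, 196 and 183 CPM in WT and 132, 137 and 115 CPM in Smad4 KO. Cyp2d34 (chr15:82446395-82451337, minus strand) did not overlap between genotypes after DSS, and on water only Smad4 KO replicate 4 reached into the range of WT. After DSS the log2 fold change was -0.56 (SE 0.10, edgeR adjusted p = 0.026), with 189 ± 6.56 CPM (SD, n = 3) in WT and 128 ± 11.3 CPM (SD, n = 3) in Smad4 KO. The call was lost in 7 of 16 alternatives, among them 4 of the 6 that left out 1 library: each WT library in turn and Smad4 KO replicate 3. The model of all 14 libraries gave an adjusted p of 0.999 and the block of the letters in the library names 0.065 (edgeR), while DESeq2 gave 9.9e-05. On water the log2 fold change was -0.77 (SE 0.23, edgeR adjusted p = 0.15), and 0.04 with DESeq2.

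Cyp2d26 was at 17.5, 23.2, 21.8 and 22.2 CPM in the WT water libraries and at 11.6, 9.78, 10.5 and 9.57 CPM in the Smad4 KO water libraries. With DSS, WT had 37, 14.4 and 24.4 CPM and Smad4 KO 9.47, 6.50 and 10.2 CPM. All 7 libraries labelled Smad4 KO, among them water replicate 1 with its WT level of Smad4, were below every WT library for Cyp2d26. The log2 fold change was -1.03 (SE 0.19, edgeR adjusted p = 0.14) on water, where DESeq2 gave 1.58e-04. After DSS it was -1.53 (SE 0.36, edgeR adjusted p = 0.13), with DESeq2 at 6.3e-06, and the 3 WT values spread more widely than on water. Cyp2d12 was at 39.9, 49.5, 30.9 and 66.5 CPM in the WT water libraries and at 21.7, 11.1, 22.2 and 26.5 CPM in the Smad4 KO water libraries. In the DSS groups the values were 11.6, 37 and 22.3 CPM for WT and 6.90, 13.4 and 13 CPM for Smad4 KO. The groups did not overlap on water, while after DSS WT replicate 1 lay below the highest Smad4 KO value. The log2 fold change of Cyp2d12 was -1.19 (SE 0.28, edgeR adjusted p = 0.14) on water. Cyp2d22 was at 31.3, 64.9, 12.9 and 40.4 CPM in the WT water libraries and at 10.03, 10.01, 13.2 and 12 CPM in the Smad4 KO water libraries. After DSS it was at 20.8, 27 and 14.8 CPM in WT and at 5.81, 25.5 and 22.1 CPM in Smad4 KO. WT water replicate 3 lay inside the range of Smad4 KO on water, so that these groups overlapped. The log2 fold change of Cyp2d22 on water was -1.73 (SE 0.37, edgeR adjusted p = 0.14).

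The Cyp2c genes, epoxygenases of arachidonic acid and drugs, showed no shared direction between genotypes after DSS, with 3 of 7 lower. Cyp2c55 was at 483, 384, 377 and 349 CPM in the WT water libraries and at 244, 236, 428 and 226 CPM in the Smad4 KO water libraries. The DSS libraries had 359, 176 and 393 CPM in WT and 216, 261 and 321 CPM in Smad4 KO. The groups overlapped in each of the 4 comparisons, and Smad4 KO water replicate 3 stood above the other 3 of its group. On water its log2 fold change was -0.49 (SE 0.22, edgeR adjusted p = 0.23). Cyp2c65, at 46.9 CPM on average, ran from 24.2 to 71.1 CPM and is 96% identical to Cyp2c66 over 1583 bases. Cyp3a13 is an intestinal member of the drug-oxidizing Cyp3a subfamily. After DSS it was at 58, 47 and 68.3 CPM in WT and 47.4, 37.4 and 38.6 CPM in Smad4 KO, with overlap by 1 library. Its log2 fold change was -0.49 (SE 0.14, edgeR adjusted p = 0.15) between genotypes after DSS and -0.48 (SE 0.15, edgeR adjusted p = 0.7) for DSS against water in Smad4 KO. The extrahepatic Cyp2s1 overlapped in each of the 4 comparisons, from 69.1 to 119 CPM. Cyp2j6, named after its values were seen, was 1 of 6 members among the 23 drug and xenobiotic Cyp with a positive log2 fold change on water. It was at 54.5, 60.3, 59 and 55.9 CPM in WT and 59.1, 103, 75.8 and 77.4 CPM in Smad4 KO on water, with a log2 fold change of 0.46 (SE 0.17, edgeR adjusted p = 0.18).

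Among the 10 fatty acid hydroxylases, 8 had negative log2 fold changes without Smad4 on water and 9 after DSS, with 2 and 4 at an unadjusted p below 0.05. Of all genes, 9.51% and 8.27% were lower at that level. Cyp4f13 was at 51.7, 59.2, 75.5 and 129 CPM in the WT water libraries and at 37.2, 28.2, 32.5 and 64.8 CPM in the Smad4 KO water libraries. With DSS, WT had 36.9, 41.5 and 41.2 CPM and Smad4 KO 23.8, 30.7 and 29.3 CPM. Cyp4f13, a leukotriene and fatty acid hydroxylase subfamily member, was named after its values were seen. It did not overlap between genotypes after DSS, with a log2 fold change of -0.51 (SE 0.12, edgeR adjusted p = 0.077) and 0.016 with DESeq2. On water Smad4 KO replicate 4 lay inside the WT range, and the log2 fold change was -0.95 (SE 0.32, edgeR adjusted p = 0.16). Cyp4b1 was a low gene, at 6.74, 5.90, 1.71 and 4.81 CPM in WT and 1.23, 0.417, 0.617 and 0.267 CPM in Smad4 KO on water, which did not overlap. After DSS it was at 0.598, 0.503 and 2.44 CPM in WT and 0.105, 0.345 and 0.203 CPM in Smad4 KO. Cyp4b1 had a log2 fold change on water of -2.90 (SE 0.57, edgeR adjusted p = 0.14), with DESeq2 at 1.58e-04.

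The Cyp members of sterol metabolism named here had log2 fold changes of opposite sign on water, neither of them called by the edgeR test of the 2 groups. Cyp51 was at 146, 179.7, 152 and 175 CPM in the WT water libraries and at 219, 288, 298 and 257 CPM in the Smad4 KO water libraries. In the DSS groups the values were 277, 296 and 231 CPM for WT and 315, 256 and 307 CPM for Smad4 KO. Cyp51, the lanosterol demethylase of cholesterol synthesis, was lowest in WT on water, where all 4 libraries lay below the other 10. Its log2 fold change was 0.70 (SE 0.16, edgeR adjusted p = 0.14) for Smad4 KO against WT on water and 0.72 (SE 0.13, edgeR adjusted p = 0.073) for DSS against water in WT. DESeq2 gave 0.005 and 0.00022 for these comparisons. Between genotypes after DSS the groups overlapped, with a log2 fold change of 0.13 (SE 0.12, edgeR adjusted p = 0.65). The difference of the DSS responses was -0.57 (SE 0.21, edgeR adjusted p = 0.64), with an unadjusted p of 0.013. Cyp27a1, which hydroxylates cholesterol and bile acid precursors in mitochondria, was at 23.5, 24.5, 23.6 and 26.3 CPM in WT and 15.8, 14.3, 15.9 and 17.6 CPM in Smad4 KO on water. After DSS it was at 14.2, 21.3 and 15.3 CPM in WT and 10.8, 13.3 and 13.2 CPM in Smad4 KO, and neither pair of groups overlapped. Cyp27a1 had a log2 fold change of -0.62 (SE 0.17, edgeR adjusted p = 0.15) on water and -0.44 (SE 0.18, edgeR adjusted p = 0.26) after DSS.

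The glucuronosyltransferases, which make lipophilic compounds excretable as glucuronides, had the only positive family median on water, 0.23 without Smad4 with 5 of 9 members higher. Ugt2b34 was at 349, 369, 314 and 261 CPM in the WT water libraries and at 435, 404, 394 and 283 CPM in the Smad4 KO water libraries. After DSS it was at 395, 384 and 392 CPM in WT and at 350.2, 328 and 325 CPM in Smad4 KO. Ugt2b34 did not overlap between genotypes after DSS, where its log2 fold change was -0.22 (SE 0.09, edgeR adjusted p = 0.3). On water it overlapped. Ugt1a7c was at 55.8, 63.8, 42.6 and 15.1 CPM in the WT water libraries and at 79.5, 73.7, 109 and 22.3 CPM in the Smad4 KO water libraries. The DSS libraries had 53.5, 60.6 and 98.6 CPM in WT and 102, 94.5 and 93 CPM in Smad4 KO. Ugt1a7c was lowest in WT water replicate 4 and Smad4 KO water replicate 4, whose library names both begin with MP. Its log2 fold change after DSS was 0.45 (SE 0.22, edgeR adjusted p = 0.38), and with the letters of the library names as a block it was called on water (adjusted p = 0.047) and after DSS (adjusted p = 0.022, edgeR), higher without Smad4 in both. After DSS, 5 of the 6 libraries are named D and the other is WT replicate 3, so that the block amounts to leaving that library out, which also gave the call. On water the contrast under the block rests on the 5 of 8 libraries named Z or MP, among them Smad4 KO replicate 1. The meaning of the letters is not given in the sources used here. The 5 tested Ugt1a genes share 48.8% to 82.7% of their exonic bases with other genes, so that how the counting assigned reads among them decides each value. Ugt1a6a was at 7.38 to 33.7 CPM, Ugt1a1, which conjugates bilirubin, at 1.28 to 8.18 CPM and Ugt2b5 at 8.86 to 30.3 CPM, each with overlap in the 4 comparisons.

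**Figure D4:**
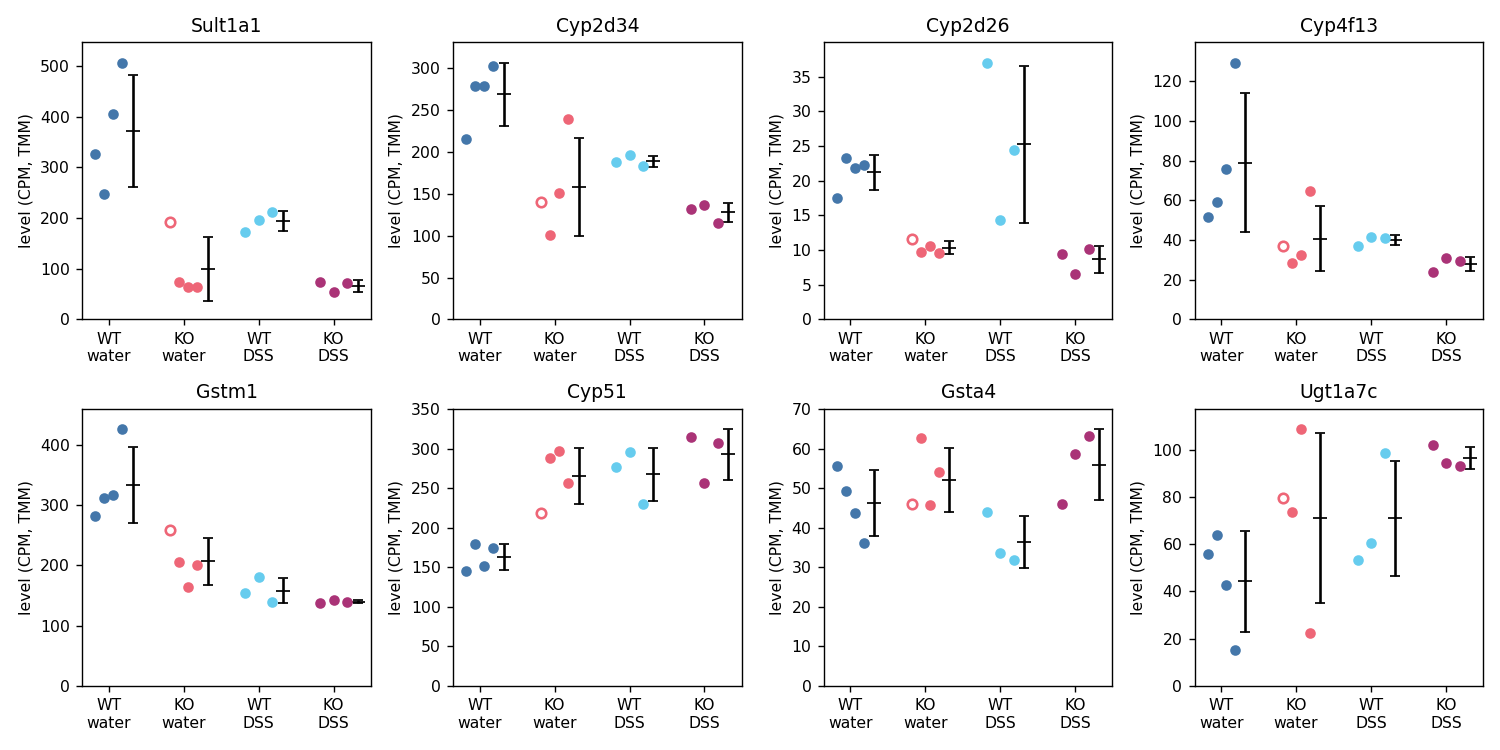
Level of 8 members in every library (CPM after TMM scaling, axes from 0), with group mean and SD beside the points. The open circle is Smad4 KO water replicate 1. Sult1a1 is lowest in the Smad4 KO libraries other than the open circle, at 53.3 to 74.5 CPM, Cyp51 is lowest in WT on water, and Ugt1a7c is lowest in replicate 4 of both water groups.

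Of the 7 sulfotransferases, Sult1a1 was the 1 called after DSS. Sult1a1 was at 325, 247, 406 and 506 CPM in the WT water libraries and at 193, 74.4, 64.3 and 64.7 CPM in the Smad4 KO water libraries. With DSS, WT had 172, 196 and 211 CPM and Smad4 KO 73.3, 53.3 and 71.3 CPM. After DSS all 3 Smad4 KO libraries lay below all 3 WT libraries, with 66 ± 11 CPM (SD, n = 3) against 193 ± 19.5 CPM (SD, n = 3). The log2 fold change was -1.55 (SE 0.13, edgeR adjusted p = 5.21e-04). Of 16 alternatives, 15 kept the call, and the model of all 14 libraries did not (edgeR adjusted p = 0.39), while the same model without the replicate 1 library of Smad4 KO on water did (edgeR adjusted p = 0.012). On water the groups did not overlap either, and replicate 1, whose Smad4 level was that of WT, had the highest Sult1a1 of the 7 Smad4 KO libraries. The log2 fold change on water was -1.90 (SE 0.37, edgeR adjusted p = 0.14), and without replicate 1 it was -2.45 (edgeR adjusted p = 0.0049). DESeq2 gave 4e-05 on all 8 libraries. Within the libraries named MP, Sult1a1 was at 506 CPM in WT and 64.7 CPM in Smad4 KO. Within those named Z it was at 406 CPM in WT and at 193 (replicate 1) and 74.4 CPM in Smad4 KO. With the letters of the library names as a block, Sult1a1 was not called on water by edgeR. For DSS against water in WT the log2 fold change was -0.94 (SE 0.22, edgeR adjusted p = 0.083), with no overlap between the groups, and in Smad4 KO it was -0.58 (SE 0.37, edgeR adjusted p = 0.83), or -0.03 without replicate 1. Sult1a1 lies at chr7:133816379-133819946, minus strand (NCBIM37), and 4.05% of its exonic bases overlap a neighbouring gene.

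The share of the Sult counts held by Sult1a1 was 52.6% in WT on water, 26% in Smad4 KO on water, 37.9% in WT after DSS and 18.1% in Smad4 KO after DSS. The values of its relatives were closer together. Sult1b1 was at 124, 155, 109.8 and 111 CPM in the WT water libraries and at 127, 126, 110.5 and 137 CPM in the Smad4 KO water libraries. In the DSS groups the values were 126, 115 and 113 CPM for WT and 132, 97.4 and 109 CPM for Smad4 KO. Sult1b1, which sulfates thyroid hormone and phenols, overlapped in each of the 4 comparisons, with log2 fold changes of 0.00 on water and -0.06 after DSS between genotypes. Sult1d1 was at 166, 164, 119 and 130.04 CPM in the WT water libraries and at 109.8, 103, 123 and 108 CPM in the Smad4 KO water libraries. After DSS it was at 159.9, 138 and 158 CPM in WT and at 183, 121 and 148 CPM in Smad4 KO. Sult1d1, a sulfotransferase of catecholamines, had log2 fold changes of -0.38 (SE 0.16, edgeR adjusted p = 0.2) between genotypes on water and 0.44 (SE 0.16, edgeR adjusted p = 0.73) for DSS against water in Smad4 KO. The cholesterol sulfotransferase Sult2b1 was at 22.8, 23.9 and 27.7 CPM in WT and 10.4, 18.4 and 17.3 CPM in Smad4 KO after DSS. These groups did not overlap, and the log2 fold change of Sult2b1 was -0.69 (SE 0.19, edgeR adjusted p = 0.13), with DESeq2 at 0.026. Sult1c2 ran from 9.84 to 32 CPM with overlap in each comparison.

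Beside the lower Sult1a1 and Cyp2d34 after DSS, 7 of 13 cell type marker lists did not overlap between the genotypes. Summed over 7 colonocyte genes the level was 5428 to 6583 CPM in WT and 4678 to 5262 CPM in Smad4 KO, and over 7 goblet genes 15108 to 16293 and 12647 to 12709 CPM. Summed over 6 myeloid genes it was 11.9 to 13.3 and 18.3 to 30.6 CPM, and over 5 stem cell genes 44.6 to 77.5 and 111 to 121 CPM. The epithelial list was at 16271 to 16862 CPM in WT and 15104 to 16081 CPM in Smad4 KO, the tuft list at 22.3 to 26.8 and 19.6 to 20.4 CPM, and the fibroblast list was given above. Thus the colonocyte, goblet, epithelial and tuft sums were lower, and the myeloid, stem cell and fibroblast sums higher, in Smad4 KO. Smoc2, 1 of the 5 stem cell genes, was at 29.4, 19.5 and 32.4 CPM in WT and at 80.7, 73.2 and 81.2 CPM in Smad4 KO. The gap in the stem cell sum thus lay largely in Smoc2 and is not a shift of the stem cell genes as a set. On water all 13 lists overlapped between the genotypes, the colonocyte list at 4365 to 6296 CPM in WT and 3902 to 6158 CPM in Smad4 KO. Groups of 3 libraries, as after DSS, stay apart by chance more easily than groups of 4, as on water. The share of all genes without overlap was not counted. The part of these cells in the levels of the members was not tested.

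The glutathione S-transferases, none of which was called by edgeR, had their most negative medians in the comparisons against WT on water. Of the 20 members, 19 had a negative log2 fold change for DSS against water in WT (median -0.35) and 16 for Smad4 KO against WT on water (median -0.25), and these comparisons share the WT water libraries. Beside the WT comparison, 2 of the 13 marker lists did not overlap: the stem cell sum was 102 to 144 CPM on water and 44.6 to 77.5 CPM after DSS, and the myeloid sum 4.38 to 10.6 and 11.9 to 13.3 CPM. Their part in the Gst levels was not tested, and the share of all genes without overlap was not counted. Between genotypes after DSS the median was -0.01, with 7 higher and 13 lower. Mu class enzymes conjugate epoxides and other electrophiles. All 8 mu class members were below 0 for DSS in WT, 4 of them at an unadjusted p below 0.05, against 12.8% of all genes lower at that level. Among the 8 is Gstm2-ps1, an entry with a pseudogene symbol, 258 exonic bases and a mean of 2.37 CPM. Gstm1 and Gstm3 are 89.5% identical over 1054 bases, so that reads could be split between them by the counting. Gstm1 was at 281, 311, 316 and 425 CPM in the WT water libraries and at 258, 205, 164 and 199.9 CPM in the Smad4 KO water libraries. The DSS libraries had 154, 180.4 and 139 CPM in WT and 138, 143 and 139 CPM in Smad4 KO. The 4 WT water libraries were the highest of the 14, and the Smad4 KO water library nearest to them was the one labelled replicate 1. Gstm1 had a log2 fold change of -1.08 (SE 0.17, edgeR adjusted p = 0.051) for DSS in WT, where DESeq2 gave 1.4e-06 and edgeR without the mitochondrial genes also called it. It was -0.69 (SE 0.19, edgeR adjusted p = 0.15) for Smad4 KO against WT on water and -0.56 (SE 0.17, edgeR adjusted p = 0.67) for DSS in Smad4 KO.

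Gstm3 was at 64.7, 65, 62.5 and 92.9 CPM in WT on water and 41, 48.6 and 45.2 CPM in WT after DSS, without overlap, and its log2 fold change was -0.66 (SE 0.16, edgeR adjusted p = 0.085). Gstm7, named after its values were seen, was at 16.4, 21.7, 19.2 and 22 and 9.74, 12.8 and 11.4 CPM in the same groups, also without overlap, and its log2 fold change was -0.81 (SE 0.18, edgeR adjusted p = 0.081). DESeq2 called both, with adjusted p = 0.0075 and 0.0018. All 3 theta class members had negative log2 fold changes on water without Smad4, from -0.78 to -0.34. Gstt1 was at 23.2, 26.3, 18.9 and 38.7 CPM in WT and 17.6, 9.36, 13.8 and 21.5 CPM in Smad4 KO on water, with overlap, and its log2 fold change was -0.78 (SE 0.28, edgeR adjusted p = 0.17). Gstz1, an enzyme of tyrosine breakdown, had a log2 fold change of -0.50 (SE 0.16, edgeR adjusted p = 0.12) for DSS in WT.

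Gsta4, which conjugates the lipid peroxidation product 4-hydroxynonenal in oxidized membranes, had a positive log2 fold change between genotypes after DSS that edgeR did not call. Gsta4 was at 55.7, 49.3, 43.7 and 36.1 CPM in the WT water libraries and at 46, 62.6, 45.8 and 54.1 CPM in the Smad4 KO water libraries. With DSS, WT had 43.9, 33.8 and 31.7 CPM and Smad4 KO 45.9, 58.7 and 63.2 CPM. After DSS every Smad4 KO library was above every WT library. The log2 fold change was 0.62 (SE 0.15, edgeR adjusted p = 0.087), with DESeq2 at 0.0089, and the edgeR test called it when WT replicate 1 or Smad4 KO replicate 1 was left out. On water the genotypes overlapped. Gsto1, an omega class reductase, ran from 346 to 482 CPM and the mitochondrial and peroxisomal Gstk1 from 34.3 to 52.6 CPM, with overlap in each comparison. Gstp1 was at 160 to 214 CPM in 13 libraries and at 295 CPM in Smad4 KO water replicate 4, and is 98.2% identical to Gstp2 over 701 bases.

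**Figure D5:**
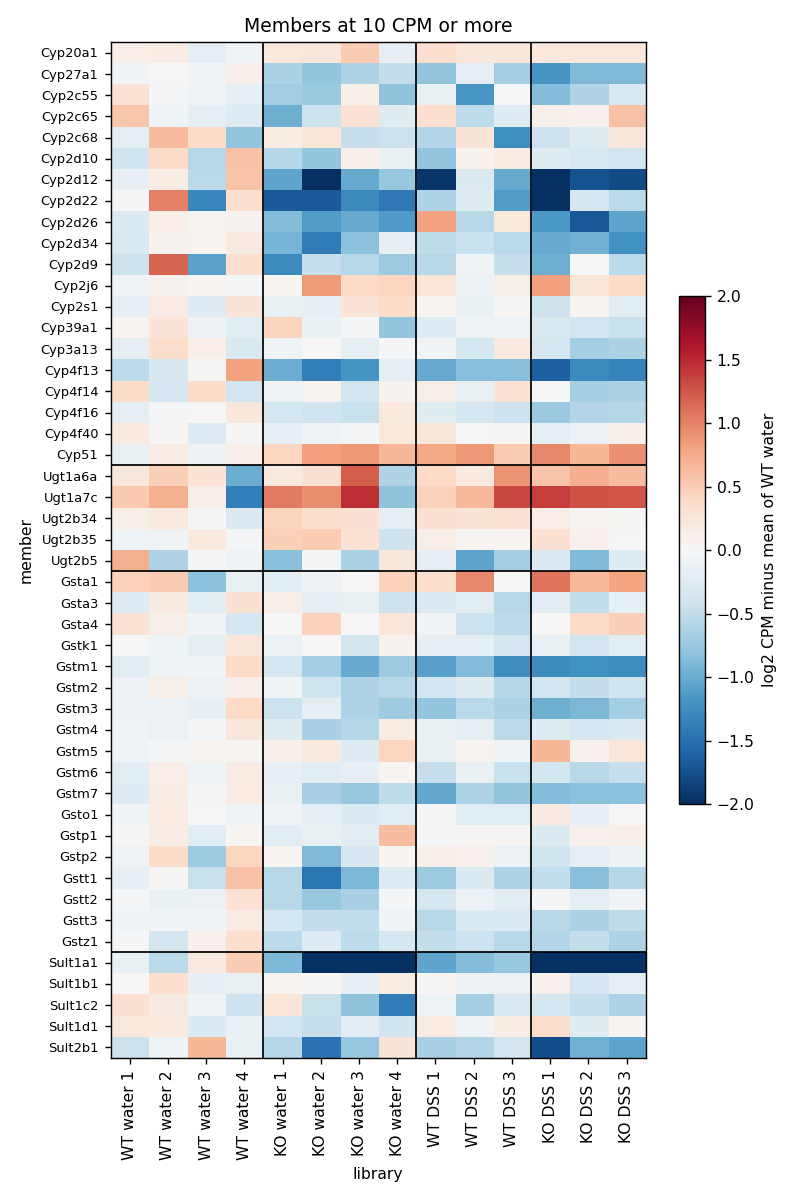
Log2 CPM of the 48 members that averaged 10 CPM or more, in each of the 14 libraries, relative to the mean of the 4 WT water libraries, with colours cut at -2 and 2 and families separated by horizontal lines. Blue is lower and red higher than in WT on water: the rows of Sult1a1, Gstm1 and Cyp27a1 are blue in the other 10 libraries, and the row of Cyp51 is red.

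Genes that work around the members were followed as lists. As a background, 8.27% of all genes were lower and 7.18% higher between genotypes after DSS at an unadjusted p below 0.05. In that comparison edgeR called 1.04% of all genes and DESeq2 3.3%. For DSS against water in WT, 11.6% of all genes were higher and 12.8% lower at the unadjusted level. DESeq2 called 11.7% there and 5.08% between genotypes on water. Of 12 tested regulators, such as Ahr, Nfe2l2 and Hnf4a, none was called in any comparison by edgeR or DESeq2. After DSS 3 were lower and 0 higher between genotypes at an unadjusted p below 0.05. The 3 were Nr1i2 (log2 fold change -0.38), Nr1i3 (-1.41) and Vdr (-0.29). Nr1i3 was a low gene, at a mean of 1.49 CPM in WT and 0.553 CPM in Smad4 KO after DSS. Of 10 tested targets of the antioxidant regulator Nrf2, none was called by edgeR, while DESeq2 called Slc7a11 higher on water without Smad4 and Txnrd1 higher for DSS in WT, and for DSS against water in WT 4 were higher and 0 lower at an unadjusted p below 0.05, with a median log2 fold change of 0.27. Of 15 genes of cofactor supply, none was called by edgeR and Ugdh (after DSS without Smad4) and Fdxr (DSS in WT) were called lower by DESeq2, with 5 lower and 0 higher after DSS between genotypes at that unadjusted level. Of 23 other metabolizing enzymes, edgeR called 1: the carboxylesterase Ces2c fell after DSS without Smad4, with a log2 fold change of -0.61 (SE 0.10, edgeR adjusted p = 0.018). At an unadjusted p below 0.05, 10 of these 23 were lower and 2 higher in that comparison. DESeq2 called 5 of them lower after DSS (Ces1f, Ces2a, Ces2b, Ces2c and Fmo5), 3 lower on water (Ces1d, Ces1g and Ces2a) and 1 lower for DSS in WT (Ces1d). Of 10 transporters, edgeR called 2 after DSS between genotypes: the uptake carrier Slco2b1 fell (log2 fold change -1.66, SE 0.21, edgeR adjusted p = 0.005) and the efflux pump Abcc4 rose (0.68, SE 0.13, edgeR adjusted p = 0.038). DESeq2 called both of these and Abcc3, which was lower, and it also called Abcc4 higher on water without Smad4 and Abcc4 and Slco2b1 higher for DSS in WT. The 2 tested genes of the aryl hydrocarbon receptor battery outside the members, of 4 listed, were not called in any comparison by edgeR or DESeq2, and Tiparp, 1 of them, was higher without Smad4 at an unadjusted p below 0.05 both on water and after DSS.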

How the data were processed

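Gene-level RNA-seq counts of 14 libraries of mouse colon epithelium were used. The values are raw counts per gene that the authors deposited: paired reads of 150 bp were mapped on mm9 using Hisat2, and featureCounts assigned them to genes, with no later scaling. The annotation and strand setting of the counting are not given in the sources used here. All columns of the table were assigned to groups from the labels. The table lists 37680 genes, of which 37310 were matched to GENCODE release M1 (NCBIM37) for symbols, positions and exon lengths.

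A gene entered the tests if 3 or more libraries held 10 or more of its counts. The main test was edgeR 4.0.16 (TMM, quasi-likelihood test with robust fit), fitted on the 2 groups compared, as the study tested pairwise, with Benjamini-Hochberg adjustment over all 15127 genes and a threshold of 0.05. The figure legends of the study give 3 replicates for Smad4 KO on water, while the 4 labelled libraries were used here. The difference of the DSS responses was tested over all 14 libraries. Alternatives were DESeq2 1.42.0, all libraries in 1 model, other normalizations and filters, blocks and each library left out. CPM are TMM-scaled. R 4.3.3, Python 3.11.15 and BLAST 2.17.0 (identity of transcripts) were used, and the fits were tested on simulated data.

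The members, lists and named genes were chosen with earlier results of these data known. Named were called members, the 3 with the most counts per kilobase of each family and a fixed list, and others are said to be named after their values were seen. Replicates are separate mice. Total counts from 12882827 to 26087231 set the precision, and counting error only is covered by statements on low counts.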

Additional observations from a re-analysis of the deposited data

Results flagged for a closer look

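Groups of 4 libraries were searched for a library far from the other 3, over 78 groups of member levels and family sums in WT and Smad4 KO on water, and 7 were found. By chance about 1 in 20 such groups would be. Sult1a1 was at 193 CPM in the library labelled Smad4 KO water replicate 1, against 64.3 to 74.5 CPM in the other 3, and that library also had the Smad4 level of WT. Smad4 KO water replicate 4, one of the libraries with many mitochondrial counts, had Gstp1 at 295 CPM (the other 3 at 164 to 174 CPM), Ugt1a6b at 0.909 CPM (the others at 0) and a Ugt sum of 365 CPM (the others 567 to 598 CPM). Cyp2c55 was at 428 CPM in Smad4 KO water replicate 3, against 226 to 244 CPM. Gstm3 was at 92.9 CPM in WT water replicate 4, against 62.5 to 65 CPM, and Ugt2b35 was at 39.1 CPM in WT water replicate 3, against 32.3 to 33.3 CPM. No member was called for a difference between the genotypes in the response to DSS.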

How the results depend on the processing

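The counts of called members depended on the test. The share of all genes called under the same setting is given in parentheses. For Smad4 KO against WT after DSS the count was 2 of 75 (1.04%), and it was 0 with all 14 libraries in 1 model (0.0132%), 1 in that model without Smad4 KO water replicate 1 (0.0463%), 6 with DESeq2 (3.3%), 7 with no filter on low counts (2.07%), 4 with the replicate block (0.846%) and 1 to 4 with 1 library left out (0.357% to 0.853%). On water it was 0 (0.00661%), and 11 with all 14 libraries in 1 model (8.9%), 10 without Smad4 KO replicate 1 in that model (7.9%), 10 with DESeq2 (5.08%), 1 with no filter (0.22%), 7 with the replicate block (4.33%), 3 with the letters of the library names as a block (3.23%) and 0 to 13 with 1 library left out (0.00661% to 12.5%). For DSS against water in WT it was 0 (0.0%), and 11 with DESeq2 (11.7%), 3 with no filter (0.942%), 2 with the replicate block (0.727%), 1 with upper quartile factors (0.139%), with the mitochondrial genes left out (0.166%), with the letters as a block (0.132%) and in the 13-library model (0.0132%), and 0 to 4 with 1 library left out (0.0% to 5.14%). For DSS in Smad4 KO and for the difference of the DSS responses it was 0 in every alternative, and the block of letters could not be estimated for DSS in Smad4 KO. The cause of these shifts was not tested. Of 833 alternatives for 48 log2 fold changes of single members, 0 reversed the direction, 90 moved it past the threshold and 8 moved it back. The 48 did not include the small changes of Cyp51 and Sult1b1 between genotypes after DSS. The alternatives reuse the same libraries, so that a reversal of larger changes was unlikely from the start. Family sums moved in 19 of 32 alternatives and family medians in 26 of 268.

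Replicate numbers did not pair the libraries: the deviations of same-numbered libraries from their group means correlated from -0.08 to 0.06, except for water replicate 4 (0.35), whose library names both begin with MP. With the replicate block, 4 members were called after DSS and 7 on water. Low members carry few counts: 14 of 75 averaged under 1 CPM, and their log2 fold changes are imprecise. Mitochondrial shares of 4.05% to 32.8% lower the counts left for other genes.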
